A study of Mus musculus with 49 samples.

Results

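The genes Tmem181b-ps, Dynlt1b, Wdfy1, Tmem40, Cd59a and Atp10b, 6 in all, were followed across every library. They were chosen by name from the deposited table of 24495 genes as the largest rises seen in the brains of mice with a conditional human amylin transgene, with genes prone to differ in copy number included. The values that chose them are those of the transgenic against the other libraries, so every such difference below is a description, with no test. The WT libraries and those labelled AKO were the other side of that choice, so tests among them are not fully independent of it. Frontal cortex RNA was sequenced in 49 libraries of mice on a high fat diet. Transgenic mice on the diet for 4 months were injected with tamoxifen (titles beginning CreTM, 10 libraries) or with vehicle (CreVE, 10 libraries), and brains were collected 2 months after injection. Mice labelled AKO, spelled out in the labels as Amylin-KO, were on the diet for 4 months (10 libraries). WT mice were on it for 4 months (10 libraries) or 2 months (9 libraries). High fat diet is shared by all 5 groups, and no group on normal diet is among them. The labels give no sex, age, strain background, litter, batch, promoter or Cre driver, and do not say whether the WT mice are littermates of either engineered line. The meaning of the numbers in the titles is not explained, so p-values reflect only how libraries spread, and some of that spread may be technical.

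Dynlt1b and Tmem181b-ps belong to small families of copies that share stretches of identical sequence. Dynlt1b encodes a Tctex-type light chain of cytoplasmic dynein, the motor that carries cargo along microtubules towards the cell body in neurons, and in the mouse it sits in a cluster of tandem copies on chromosome 17. Tmem181b-ps is a transcribed pseudogene copy of Tmem181a in the same cluster, and Tmem181a encodes a protein that spans the membrane several times. Wdfy1 encodes a protein of early endosomes that binds phosphatidylinositol 3-phosphate and acts as an adaptor for Toll-like receptors. Cd59a encodes a membrane-anchored protein that stops complement from assembling its pore on the cell surface. Atp10b encodes a P4-type ATPase, a flippase that moves lipids across membranes, known from the human protein as an exporter of glucosylceramide from lysosomes. Tmem40 encodes a transmembrane protein whose function is poorly defined.

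The Dynlt1 copies are shown because their coding sequences bear on how reads could be assigned to them. The first 60 of 342 coding bases are printed from the GENCODE M21 transcripts, 5′ to 3′, with the differing base in capitals.
Dynlt1b: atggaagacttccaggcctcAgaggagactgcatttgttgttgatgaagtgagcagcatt
Dynlt1a: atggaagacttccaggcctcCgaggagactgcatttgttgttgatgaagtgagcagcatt
Dynlt1c: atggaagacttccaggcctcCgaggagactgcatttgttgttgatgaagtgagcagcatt
Dynlt1f: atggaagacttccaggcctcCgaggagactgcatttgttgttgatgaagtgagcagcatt
The substitution A21C, counted from 1 at the start codon with the Dynlt1b base first, is the only difference between the Dynlt1b coding sequence and each of the other 3 over the 342 bases. Of the 672 windows of 100 bases in Dynlt1b transcripts, 551 (82.0%) also occur in transcripts of another gene, most often Dynlt1a (67.1%). For Tmem181b-ps the share is 33.3%, most often with Tmem181a (29.6%). It is 3.23% for Atp10b, 0.472% for Wdfy1, 0.276% for Cd59a and 0 for Tmem40. The sources used here do not say how the authors counted reads that match several genes or whether counting used the strand, so the levels of Dynlt1b and Tmem181b-ps are uncertain between copies. Dynlt1c had no read in any of the 49 libraries.

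Levels are normalised reads, that is reads divided by the size factor of the library, or log2(normalised reads + 1) as deposited. Differences on the log2 scale understate the change of genes with few reads. Recovered reads per library ranged from 29.2 M to 75.6 M, with group medians of 47.1 M in the tamoxifen group, 39.8 M in the vehicle group, 39.8 M with the AKO label, 37.8 M in WT at 4 months and 42.9 M in WT at 2 months. Mouse Iapp, the gene of amylin, had 36 to 116 reads in each of the 10 libraries labelled AKO and none in the WT or tamoxifen libraries, with 1 read in the vehicle group. Iapp reads in this group alone are at odds with the AKO label taken at its face, but their source was not tested. That group is therefore called the libraries labelled AKO, and directions drawn from it hold as labelled. All 8 markers of cortical excitatory neurons had reads in every library, but their level stood far below the other libraries in tamoxifen 9 (mean z-score -3.61) and vehicle 3 (-3.12), with vehicle 1 next (-1.33). The lowest summed level was 115246 normalised reads in the tamoxifen group, whose median was 266057, and 117346 in the vehicle group, whose median was 261152. All 6 genes passed the filter on low reads in every comparison. Summed olfactory bulb markers (5 genes) exceeded those of every WT library at 4 months (810 to 16503 normalised reads) in 4 libraries: tamoxifen 9 (19449), vehicle 1 (36327), vehicle 3 (53487) and the library titled 15 among those labelled AKO (17978). In bulk tissue, fewer cells of a type and less RNA per cell cannot be told apart.

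Tmem181b-ps and Dynlt1b, the neighbouring pair on chromosome 17, were higher in all 20 transgenic libraries than in any of the other 29. Tmem181b-ps (gene ID 547127; a transcribed unprocessed pseudogene at chromosome 17, 6438524 to 6467022, minus strand, GRCm38) had 6212 to 9544 normalised reads in the tamoxifen group, with a median of 8795, and 6776 to 11516 in the vehicle group, with a median of 8196. The libraries labelled AKO had 1759 to 3007 (median 2708), WT at 4 months 1651 to 3443 (median 2200) and WT at 2 months 1902 to 4815 (median 2921). The lowest transgenic library thus stood above the highest of the others, and the groups did not overlap. On the log2 scale the tamoxifen group was higher than WT at 4 months by 1.85 (SE 0.12), a 3.61-fold difference, and the vehicle group by 1.88 (SE 0.11), a 3.69-fold difference. Against WT at 2 months the differences were 1.42 (SE 0.14) in the tamoxifen group and 1.46 (SE 0.14) in the vehicle group. The comparisons share their control libraries and are not independent. In the order of group means, both transgenic groups came first and differed from each other by less than their SD, as did neighbours among the other 3 groups.

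Dynlt1b lay beside the pseudogene on the opposite strand (chromosome 17, 6430112 to 6436296, plus strand, GRCm38) and was covered by far fewer reads. It had 105 to 178 normalised reads in the tamoxifen group (median 143), 92.3 to 269 in the vehicle group (median 113), 40.4 to 77.1 in the libraries labelled AKO (median 51.4), 32.5 to 81.5 in WT at 4 months (median 51.1) and 33.1 to 84.0 in WT at 2 months (median 42.4). No transgenic library fell among the others. The log2 difference from WT at 4 months was 1.47 (SE 0.16) in the tamoxifen group and 1.40 (SE 0.21) in the vehicle group, 2.78-fold and 2.64-fold. Vehicle 3 and vehicle 1, the libraries richest in olfactory bulb markers, held the highest 2 levels, and without the bulb-rich libraries the differences were 1.44 (SE 0.16) and 1.18 (SE 0.17).

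Of 15852 genes with enough reads across the 49 libraries, 3 (0.0189%) were higher in every transgenic library than in every other: Tmem181b-ps, Dynlt1b and Tsr2. No gene of the 6 was among the 2 (0.0126%) lower in every transgenic library. Tsr2, an X-linked gene of ribosome biogenesis, was named after its values were seen. Its separation was narrow, at 12.04 ± 0.06 (SD, n = 10) in the tamoxifen group and 12.03 ± 0.06 (n = 10) in the vehicle group, against 11.82 ± 0.06 (n = 10) in the libraries labelled AKO, 11.79 ± 0.05 (n = 10) in WT at 4 months and 11.70 ± 0.05 (n = 9) in WT at 2 months.

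Of the nearest copies, Tmem181a and Tmem181c-ps rose relative to WT at 4 months and Dynlt1a did not pass. Whether any copy differed from the pair in its change was not tested. Tmem181a was at 11.77 ± 0.19 in the tamoxifen group and 11.70 ± 0.21 in the vehicle group, and at 11.40 ± 0.08 in WT at 4 months (log2, SD, n = 10 each). It rose by 0.37 (SE 0.06, adjusted p = 0.00045, limma) with tamoxifen and 0.30 (SE 0.07, adjusted p = 0.01, limma) with vehicle relative to WT at 4 months. WT at 2 months, at 11.62 ± 0.09 (n = 9), lay nearer to the transgenic groups, and the differences from it were 0.15 (SE 0.07, adjusted p = 0.16, limma) and 0.08 (SE 0.07, adjusted p = 0.59, limma). Tmem181c-ps, a pseudogene copy, had 21 to 45 normalised reads in the tamoxifen group and 21.5 to 48.7 in the vehicle group, against 5.6 to 36.1 in WT at 4 months. It rose by 1.08 (SE 0.27, adjusted p = 0.011, limma) in the tamoxifen group and by 1.01 (SE 0.28, adjusted p = 0.036, limma) in the vehicle group relative to WT at 4 months. Its differences from WT at 2 months were 0.61 (SE 0.17, adjusted p = 0.028, limma) and 0.54 (SE 0.19, adjusted p = 0.15, limma). Of its 1287 windows of 100 bases, 641 (49.8%) also occur in Tmem181b-ps, which has far more reads, and 18.8% of those of Tmem181a do, so the levels of both copies are uncertain too. Tmem181a overlaps Dynlt1a on the opposite strand, so reads of these genes cannot be told apart where counting ignored the strand. Dynlt1a, whose transcripts share the most windows with Dynlt1b, did not pass the test against WT at 4 months, with differences of 0.03 (SE 0.10, adjusted p = 0.90, limma) and 0.06 (SE 0.11, adjusted p = 0.82, limma). Dynlt1f had 18 reads or fewer in every transgenic library.

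**Figure D1:**
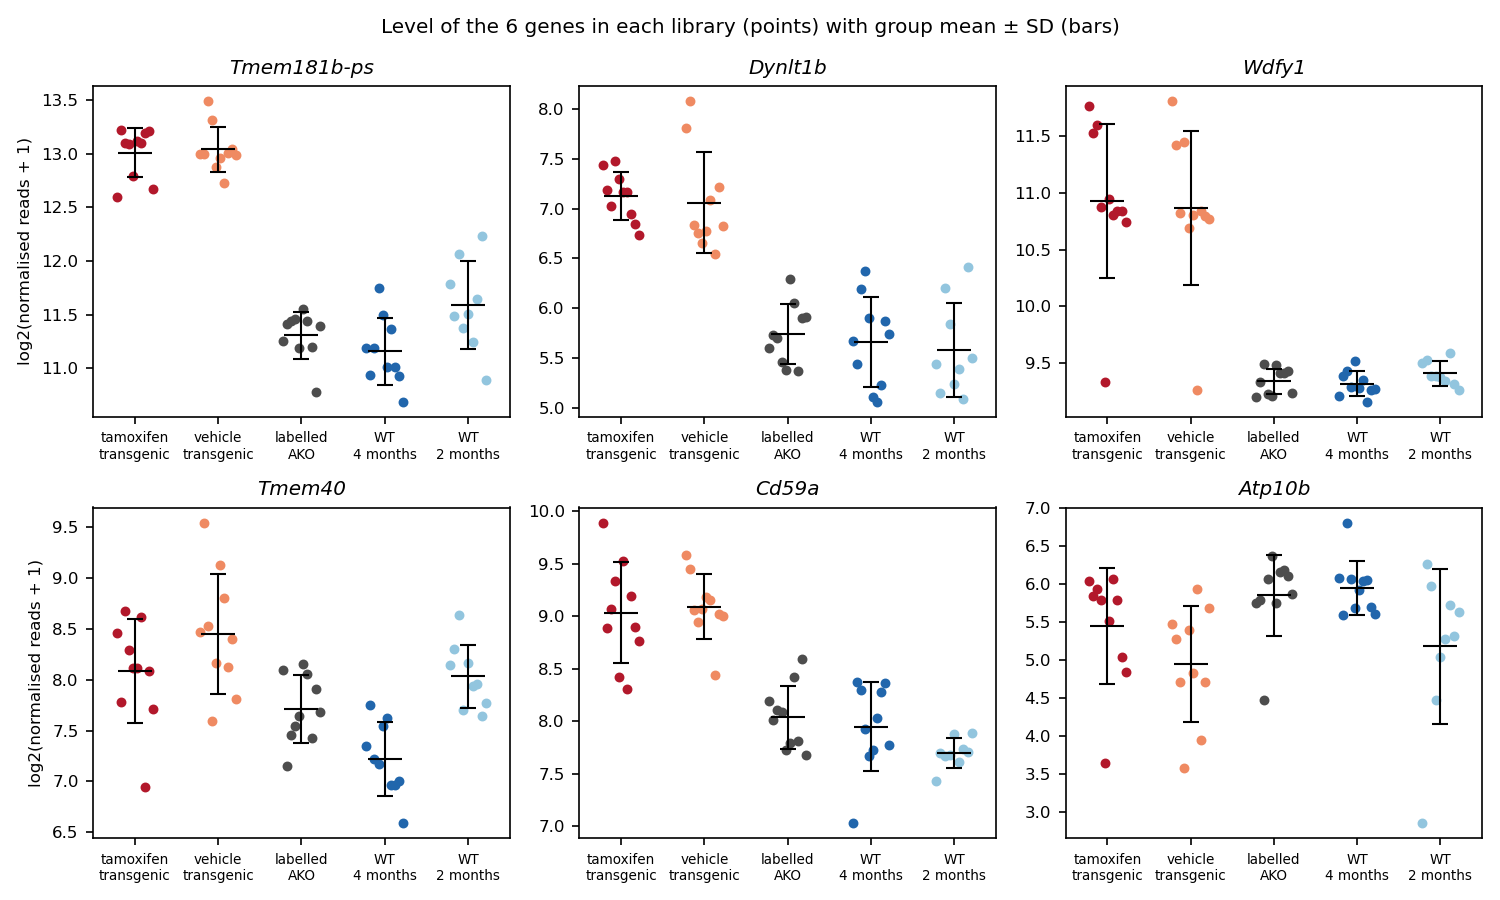
Level of each of the 6 genes, as log2(normalised reads + 1), in every library (points) of the 5 groups, with the group mean and SD (bars); each panel has its own axis, which does not start at 0. The transgenic points of Tmem181b-ps and Dynlt1b lie above all others, Wdfy1 has a transgenic point at the level of the other groups in each transgenic group, and Atp10b averages 5.45 in the tamoxifen group and 4.95 in the vehicle group against 5.95 in WT at 4 months.

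Wdfy1 was higher in 18 of 20 transgenic libraries than in any other library, and its transgenic levels came in 3 separate bands. Wdfy1 (chromosome 1, 79702262 to 79776143, minus strand, GRCm38) ranged from 643 to 3490 normalised reads in the tamoxifen group (median 1857) and from 613 to 3602 in the vehicle group (median 1801). The other groups were tight, at 587 to 718 in the libraries labelled AKO (median 661), 571 to 735 in WT at 4 months (median 624) and 612 to 770 in WT at 2 months (median 670). Tamoxifen 21 and vehicle 16 were the 2 transgenic libraries at the level of the other groups.

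Of the remaining transgenic libraries, 12 lay between 1651 and 1973 normalised reads, 6 of them treated with tamoxifen and 6 with vehicle. The last 6, 3 from each group, lay between 2737 and 3602, and were tamoxifen 9, 15 and 16 and vehicle 1, 3 and 5. On the log2 scale the bands were 1.36 and 0.47 apart, wider than the whole range of WT at 4 months (0.36). None of the other 5 genes had a gap among the transgenic libraries wider than its own WT range at 4 months. Those ranges were broader, at 1.06 to 1.34. In absolute size the widest gaps of Atp10b (0.77) and Tmem40 (0.64) exceeded the 0.47 between the upper bands of Wdfy1. Of the 6 libraries in the top band, 3 were bulb-rich (tamoxifen 9, vehicle 1 and vehicle 3), tamoxifen 16 had 16130 normalised reads of bulb markers, and tamoxifen 15 (1212) and vehicle 5 (467) had few. None of the 12 in the middle band and neither of the lowest 2 was bulb-rich. The part of these markers in the bands was not tested. Group means hide the bands: the tamoxifen group averaged 10.93 ± 0.68 and the vehicle group 10.87 ± 0.68 (log2, SD, n = 10 each), against 9.32 ± 0.11 in WT at 4 months. Without the bulb-rich libraries the difference from WT at 4 months was 1.52 (SE 0.20) in the tamoxifen group and 1.36 (SE 0.19) in the vehicle group, against 1.61 (SE 0.21) and 1.55 (SE 0.21) with them.

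**Figure D2:**
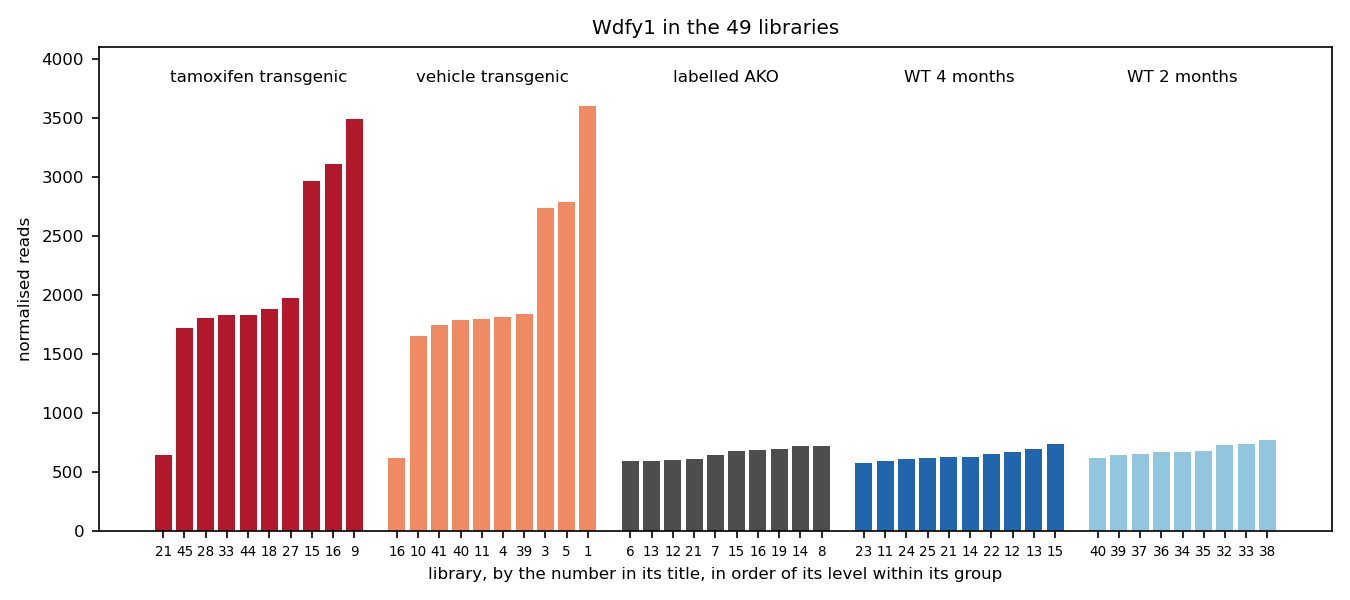
Normalised reads of Wdfy1 (bars, axis from 0) in each of the 49 libraries, ordered by level within each group and labelled with the number in the title. The transgenic bars form 3 bands, at 613 to 643, 1651 to 1973 and 2737 to 3602, while bars of the other groups stay between 571 and 770.

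Cd59a, the complement inhibitor (chromosome 2, 104095801 to 104115354, plus strand, GRCm38), was about doubled in the transgenic groups, with little overlap. It had 317 to 948 normalised reads in the tamoxifen group (median 508), 347 to 766 in the vehicle group (median 533), 203 to 385 in the libraries labelled AKO (median 265), 130 to 330 in WT at 4 months (median 251) and 172 to 235 in WT at 2 months (median 207). All 10 vehicle and 9 of 10 tamoxifen libraries lay above every WT library at 4 months, and all 20 lay above every WT library at 2 months. The log2 difference from WT at 4 months was 1.08 (SE 0.19) in the tamoxifen group and 1.14 (SE 0.15) in the vehicle group, 2.12-fold and 2.21-fold. The highest levels were in tamoxifen 9 and vehicle 1, both bulb-rich, and without such libraries the differences were 0.99 (SE 0.18) and 1.04 (SE 0.15). Cd59b, the second mouse copy of this inhibitor, is the adjacent gene. Its differences from WT at 4 months, 0.40 (SE 0.19, adjusted p = 0.17, limma) and 0.28 (SE 0.22, adjusted p = 0.49, limma), did not pass the test.

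Tmem40 (chromosome 6, 115729131 to 115762410, minus strand, GRCm38) was higher in the transgenic groups than in WT at 4 months but overlapped WT at 2 months. It had 122 to 407 normalised reads in the tamoxifen group (median 275), 192 to 742 in the vehicle group (median 345), 141 to 283 in the libraries labelled AKO (median 202), 95.6 to 215 in WT at 4 months (median 146) and 199 to 394 in WT at 2 months (median 248). Against WT at 4 months, 8 of 10 tamoxifen and 9 of 10 vehicle libraries were above every WT library. Against WT at 2 months these counts were 1 and 3. The log2 difference was 0.86 (SE 0.18) in the tamoxifen group and 1.24 (SE 0.20) in the vehicle group relative to WT at 4 months, and 0.05 (SE 0.18) and 0.43 (SE 0.21) relative to WT at 2 months. WT at 4 months was the lowest group, and the only neighbouring pair in the order of means that differed by more than the larger SD was the libraries labelled AKO and WT at 4 months.

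Atp10b (chromosome 11, 43149877 to 43262285, plus strand, GRCm38) goes against the list it is in: it was not higher in the transgenic groups than in the other groups at 4 months, but lower. It had 11.5 to 65.5 normalised reads in the tamoxifen group (median 54.5), 11 to 60.4 in the vehicle group (median 32.6), 21.1 to 81.7 in the libraries labelled AKO (median 61.7), 47.0 to 111 in WT at 4 months (median 62.3) and 6.2 to 76.1 in WT at 2 months (median 39). Below every WT library at 4 months were 4 tamoxifen and 8 vehicle libraries. The difference from WT at 4 months was -0.50 (SE 0.25) in the tamoxifen group and -1.0 (SE 0.26) in the vehicle group on the log2 scale. Without tamoxifen 21, the lowest of its group, the tamoxifen value was -0.30. Relative to WT at 2 months it was 0.27 (SE 0.38) and -0.22 (SE 0.38), with full overlap, and these values rest on single libraries. Without WT 32 at 2 months, which had 5 reads, they were -0.016 and -0.51, without tamoxifen 21 the first was 0.48, and without vehicle 5 the second was -0.069. With 5 to 143 reads per library, counting error is large for this gene.

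Markers of oligodendrocytes, the myelin-forming cells, moved with Atp10b. All 7 fell relative to WT at 4 months in both transgenic groups (limma, adjusted p under 0.05, against 13.1% of all genes with tamoxifen and 6.17% with vehicle), with a median difference of -0.43 in the tamoxifen group and -0.62 in the vehicle group, against a median of 0.00 over all genes tested in each. Their summed level was 83936 to 168116 normalised reads in the tamoxifen group, 79380 to 178518 in the vehicle group, 123706 to 174088 in the libraries labelled AKO, 154721 to 188178 in WT at 4 months and 86974 to 189475 in WT at 2 months, and none was at 0 in any library. Relative to WT at 2 months, none of the 7 passed the test in either transgenic group (background 8.12% with tamoxifen and 1.80% with vehicle). Relative to the libraries labelled AKO, none of the 7 passed in the tamoxifen group and 3 fell in the vehicle group (background 9.72% and 6.63%). Within groups, deviations of Atp10b from its group mean followed those of the marker list over the 49 libraries (Pearson r = 0.54, permutation p = 0.0012, adjusted p = 0.011; Spearman rho = 0.43, permutation p = 0.0059, adjusted p = 0.038; 45 relations of genes with lists). Without the 2 libraries farthest from the median of Atp10b, r was 0.33. The part of these markers in the difference between groups was not tested.

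**Figure D3:**
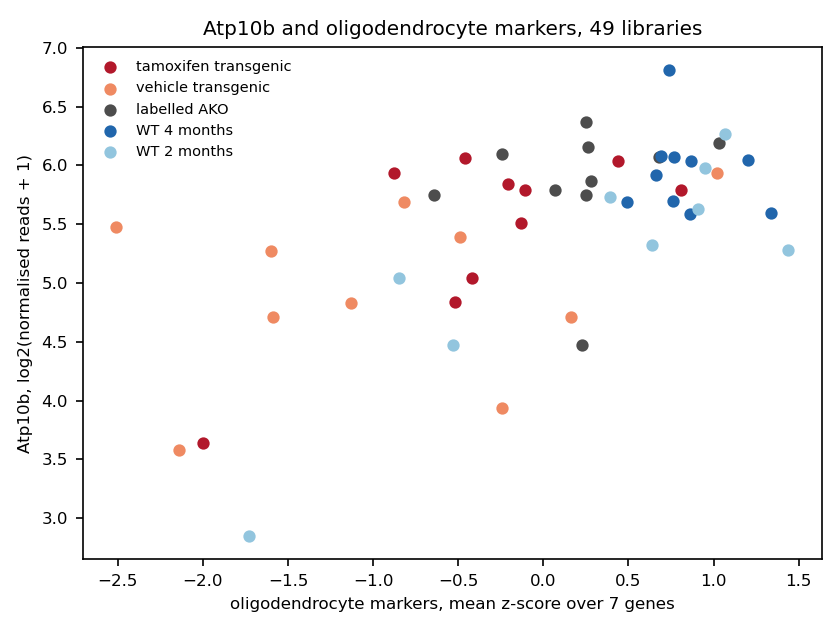
Atp10b, as log2(normalised reads + 1), against the mean z-score of 7 oligodendrocyte markers in the 49 libraries, coloured by group. All WT libraries at 4 months lie at the right, with Atp10b at 5.59 to 6.81, and the transgenic libraries spread to the lower left, down to 3.64 in the tamoxifen group and 3.58 in the vehicle group, with 1 WT library at 2 months at 2.85.

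Genes around each of the 6 were followed to see whether a difference was shared along the chromosome. The table held 72 tested genes that start within 1 Mb. Relative to WT at 4 months, 3 rose and 4 fell in the tamoxifen group (9.72%, against 13.1% of all genes tested, limma), and 2 rose and 2 fell in the vehicle group (5.56%, against 6.17% of all genes tested). Their median difference was -0.01 in both, beside 0.00 over all genes. Relative to WT at 2 months the shares were 11.1% in the tamoxifen group, against 8.12% of all genes, and 5.56% in the vehicle group, against 1.80%. Relative to the libraries labelled AKO they were 5.56%, against 9.72%, and 8.33%, against 6.63%. None of the 72 passed in the tamoxifen group relative to the vehicle group. Around Wdfy1 none of 7 tested neighbours passed, and the differences ran from -0.43 to 0.00 in the tamoxifen group and -0.51 to 0.02 in the vehicle group.

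On chromosome 17, the only neighbours that rose were Tmem181a and Tmem181c-ps, and Synj2, an inositol phosphatase gene, fell by 0.51 (SE 0.13, adjusted p = 0.012, limma) in the tamoxifen group, with a difference of -0.49 (SE 0.15, adjusted p = 0.063, limma) in the vehicle group. Synj2 fell in both relative to WT at 2 months, by 0.79 (SE 0.14, adjusted p = 0.0021, limma) and 0.76 (SE 0.17, adjusted p = 0.024, limma). This fall was not limited to the transgenic groups. Libraries labelled AKO were also lower than WT at 2 months, at -0.47 (SE 0.09, adjusted p = 0.0023, limma). Neither transgenic group passed for Synj2 against the libraries labelled AKO. The differences were -0.31 (adjusted p = 0.094, limma) with tamoxifen and -0.29 (adjusted p = 0.24, limma) with vehicle. Beside Cd59a, Caprin1, an RNA-binding protein of stress granules, fell by 0.24 (SE 0.03, adjusted p = 0.00013, limma) in the tamoxifen group and 0.18 (SE 0.03, adjusted p = 0.0019, limma) in the vehicle group, and Cstf3, a gene of messenger RNA 3′ end formation, fell by 0.15 (SE 0.05, adjusted p = 0.043, limma) with tamoxifen, with -0.11 (SE 0.05, adjusted p = 0.26, limma) in the vehicle group. Near Tmem40, Zfand4 rose by 0.28 (SE 0.08, adjusted p = 0.031, limma) in the tamoxifen group, with 0.20 (SE 0.10, adjusted p = 0.29, limma) in the vehicle group. Near Atp10b, Pttg1, the securin that restrains sister chromatid separation, fell by 0.21 (SE 0.05, adjusted p = 0.016, limma) and 0.23 (SE 0.06, adjusted p = 0.016, limma). Relative to WT at 2 months the Pttg1 differences were -0.03 (adjusted p = 0.79, limma) and -0.06 (adjusted p = 0.66, limma). Relative to the libraries labelled AKO they were -0.08 (adjusted p = 0.40, limma) and -0.10 (adjusted p = 0.28, limma). WT at 4 months was itself higher than WT at 2 months, by 0.17 (adjusted p = 0.044, limma). Without the bulb-rich libraries 13 neighbours (18.1%) passed in the tamoxifen group, against 20.8% of all genes, and 16 (22.2%) in the vehicle group, against 18% of all genes.

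**Figure D4:**
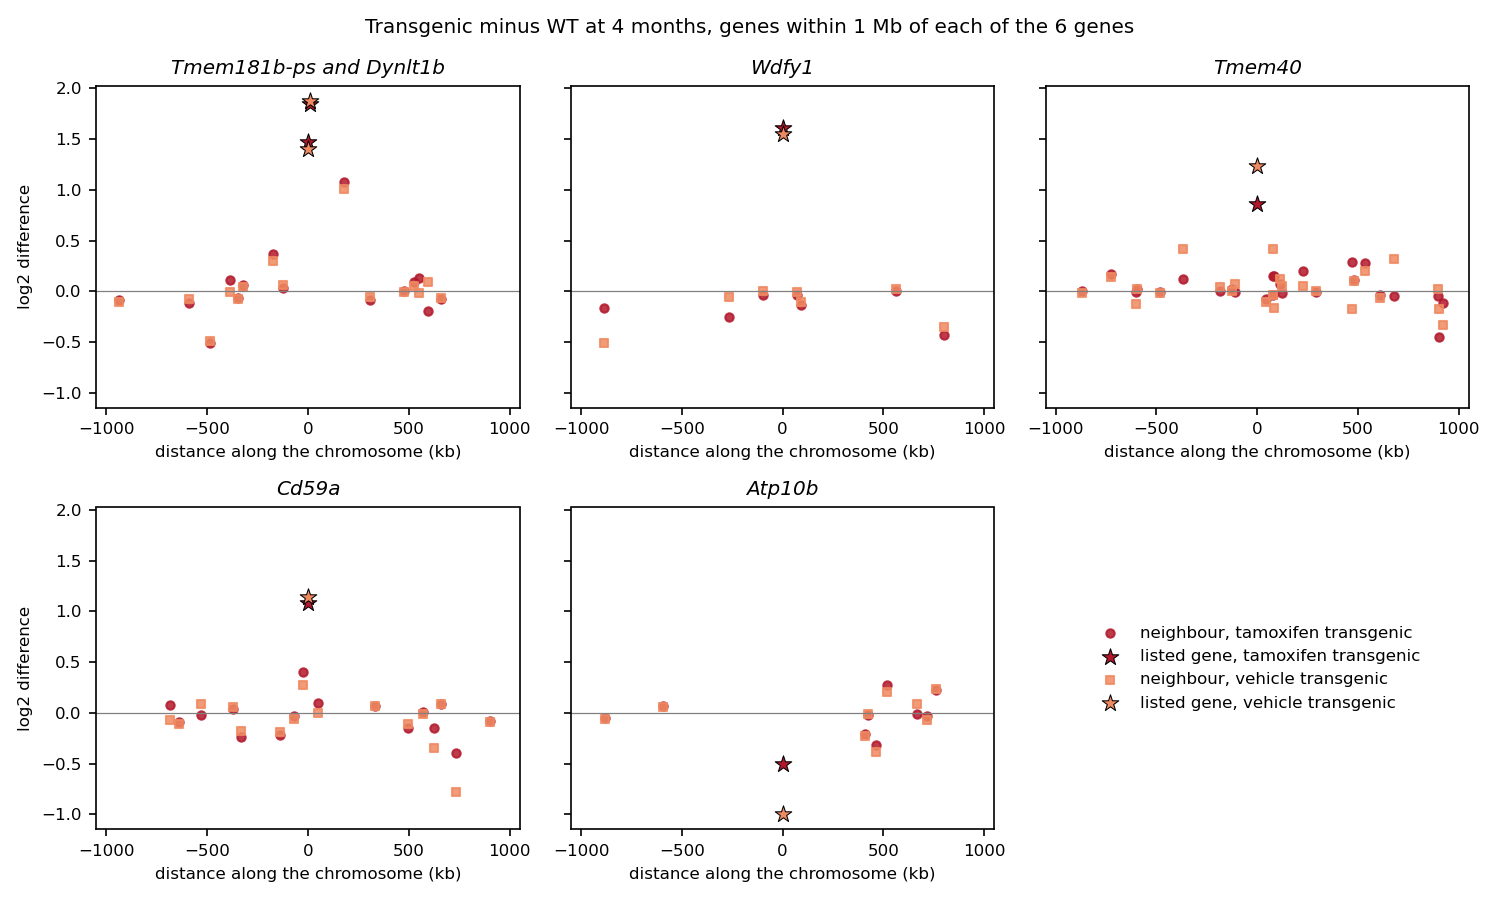
Log2 difference of each tested gene within 1 Mb, transgenic minus WT at 4 months, against its distance in kb along the chromosome from the start of the listed gene; stars are the listed genes, circles the tamoxifen and squares the vehicle group. The stars lie outside the spread of the neighbours in every panel, below it for Atp10b. The listed genes were chosen by transgenic differences and the neighbours were not, so this is a description. The highest neighbour is Tmem181c-ps, at 1.08 in the tamoxifen group and 1.01 in the vehicle group.

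Functional relatives of the 6 genes were read from lists of 39 tested genes, of which 6 rose and 1 fell in the tamoxifen group relative to WT at 4 months (17.9%, against 13.1% of all genes tested) and 4 rose and 1 fell in the vehicle group (12.8%, against 6.17%). The median difference was 0.02 in both, beside 0.00 over all genes. Without the bulb-rich libraries, 11 (28.2%) passed in the tamoxifen group and 9 (23.1%) in the vehicle group, against 20.8% and 18% of all genes. Among complement genes, C7, a component of the membrane attack complex that Cd59a restrains, rose by 0.85 (SE 0.19, adjusted p = 0.0098, limma) in the vehicle group, and its difference in the tamoxifen group was 0.63 (SE 0.22, adjusted p = 0.064, limma). C8g, which belongs to the same complex, rose by 0.96 (SE 0.28, adjusted p = 0.024, limma) in the tamoxifen group, and its vehicle difference was 0.76 (SE 0.31, adjusted p = 0.16, limma). Cr1l, a rodent complement regulator, fell by 0.27 (SE 0.06, adjusted p = 0.0031, limma) with tamoxifen and 0.23 (SE 0.05, adjusted p = 0.0049, limma) with vehicle. Together these were 2 of 6 tested complement genes in each group, in opposite directions.

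Of the other 12 tested flippase genes and subunits, Atp11b alone passed relative to WT at 4 months. Of all genes tested, 13.1% passed with tamoxifen and 6.17% with vehicle, which is also the background for the lists below. Atp11b rose by 0.29 (SE 0.08, adjusted p = 0.017, limma) in the tamoxifen group and 0.28 (SE 0.08, adjusted p = 0.03, limma) in the vehicle group. Atp10a, at 9.31 ± 0.26 in the tamoxifen group, 9.39 ± 0.32 in the vehicle group and 8.99 ± 0.30 in WT at 4 months, did not pass (adjusted p = 0.077 and 0.071, limma), nor did Atp10d. Wdfy4, a relative of Wdfy1 that acts in antigen presentation by dendritic cells, rose by 0.61 (SE 0.12, adjusted p = 0.002, limma) in the tamoxifen group, and the vehicle difference was 0.41 (SE 0.17, adjusted p = 0.16, limma). Wdfy2 did not pass, at differences of 0.10 (SE 0.09) and -0.01 (SE 0.11), nor did the Toll-like receptor genes of the list. Of 9 cytoplasmic dynein subunits, Dync1li2, a light intermediate chain, rose by 0.15 (SE 0.04, adjusted p = 0.031, limma) in the tamoxifen group, and its vehicle difference was 0.11 (SE 0.04, adjusted p = 0.10, limma).

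Tamoxifen was set against vehicle within the transgenic line, where neither group was used to choose the genes against the other. None of the 6 genes passed (limma, 0 of 6, and 0% of the 15224 genes tested), none had an unadjusted p under 0.05, and limma-voom gave the same 0. Over all genes 502 had an unadjusted p under 0.05. The intervals set the sizes that remain possible. For Tmem181b-ps the difference was -0.03 (95% interval -0.23 to 0.16), for Dynlt1b 0.07 (-0.29 to 0.43), for Cd59a -0.06 (-0.41 to 0.30) and for Wdfy1 0.06 (-0.53 to 0.65). Tmem40 differed by -0.38 (-0.86 to 0.11) and Atp10b by 0.50 (-0.18 to 1.17), so that differences of more than 1.5-fold are inside the intervals of these 2 genes and of Wdfy1. The labels give an injection for the transgenic groups only. By the labels, transgene, any Cre, line, strain background and injection cannot be told apart in the difference between transgenic and WT mice.

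Libraries labelled AKO, by that label a second engineered line, gave no call among the 6 genes relative to WT at 4 months (limma, 0 of 6, against 0.786% of all 15269 genes tested). The gene nearest to the threshold was Tmem40, which averaged 7.71 ± 0.33 with the AKO label and 7.22 ± 0.36 in WT at 4 months (SD, n = 10 each), a difference of 0.49 (SE 0.14, unadjusted p = 0.0022, adjusted p = 0.11, limma). By limma-voom none was called either, and in both fits Tmem40 was the only gene with an unadjusted p under 0.05. The same WT values entered the choice of Tmem40, so its p-values here are not independent of that choice. For Tmem181b-ps the difference was 0.16 (95% interval -0.08 to 0.39), for Dynlt1b 0.08 (-0.28 to 0.44) and for Wdfy1 0.03 (-0.08 to 0.14).

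Relative to WT at 2 months, libraries labelled AKO showed 1 call, in Cd59a (1 of 6, against 17.0% of all 15277 genes tested). Cd59a rose by 0.34 (SE 0.11, adjusted p = 0.032, limma), and averaged 8.04 ± 0.30 with the AKO label (n = 10) and 7.70 ± 0.14 in WT at 2 months (n = 9). Label and time on diet cannot be told apart in this comparison. The call was lost in limma-voom (0.27), in a model of all 49 libraries (0.34), without the bulb-rich library (0.30, adjusted p = 0.051, limma), which is library 15 of those labelled AKO, and without libraries 6, 8 or 19 labelled AKO or WT 32 or 35 at 2 months (adjusted p = 0.051 to 0.065, limma).

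In WT at 4 months relative to WT at 2 months, 1 of 6 genes passed, against 8.69% of all 15234 genes tested. The labels give neither age nor batch, so time on diet cannot be told apart from them here. Tmem40 fell by 0.81 (SE 0.15, adjusted p = 0.0037, limma), with 95.6 to 215 normalised reads in WT at 4 months and 199 to 394 in WT at 2 months, and only libraries between 199 and 215 overlapped. It passed in every fit that left out a library (adjusted p = 0.0017 to 0.0089, limma). The transgenic rise of Tmem40 was 0.86 and 1.24 relative to WT at 4 months, but 0.05 and 0.43 relative to WT at 2 months. Low values in WT at 4 months may thus have helped to choose Tmem40, and this call is not independent of that choice. Tmem181b-ps, at -0.43 (SE 0.16, adjusted p = 0.091, limma), and Atp10b, at 0.78 (SE 0.32, adjusted p = 0.12, limma; 0.49 without WT 32 at 2 months), did not pass. Without WT 40 at 2 months Tmem181b-ps passed (-0.51, adjusted p = 0.035, limma), and without WT 11 at 4 months Cd59a did (0.35, adjusted p = 0.041, limma). The test of whether the AKO-label difference departs from the tamoxifen difference called none of the 6, against 0.0382% of 15691 genes. For Tmem40 it gave 0.87 (SE 0.28, unadjusted p = 0.0036, adjusted p = 0.66, limma).

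**Figure D5:**
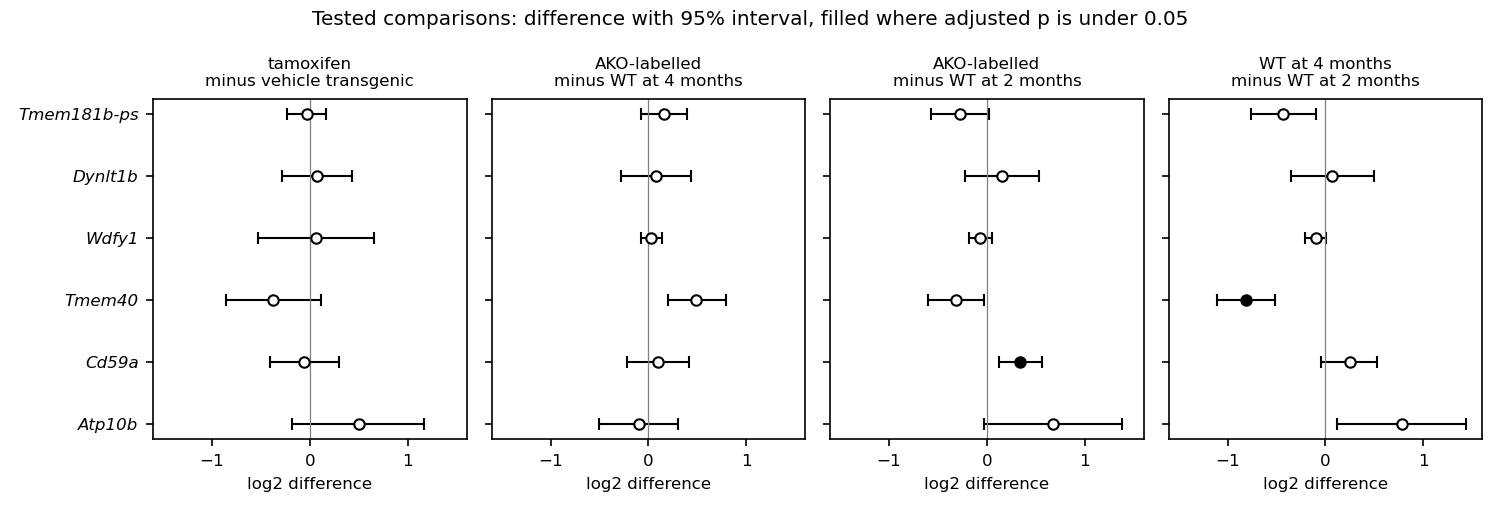
Log2 difference of each gene (points) with its 95% interval (bars) in the 4 tested comparisons; filled points passed at adjusted p 0.05. The filled points are Cd59a, at 0.34 for libraries labelled AKO minus WT at 2 months, and Tmem40, at -0.81 for WT at 4 months minus WT at 2 months.

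Over the 20 transgenic libraries, 0 of 10 pairs of the genes other than Wdfy1 passed after group means were subtracted. Wdfy1 was left out of these pairs because of its separate bands. The pair with the smallest p was Dynlt1b and Cd59a (Pearson r = 0.51, permutation p = 0.0075, adjusted p = 0.075; Spearman rho = 0.48, permutation p = 0.024, adjusted p = 0.18), with r = 0.40 without the 2 farthest libraries. In the 10 vehicle libraries alone this pair passed by r (0.80, permutation p = 0.0034, adjusted p = 0.034) and not by rho (0.66, permutation p = 0.044, adjusted p = 0.15), and r was 0.54 without the 2 farthest. In the 10 tamoxifen libraries alone 0 of 10 pairs passed. Across all 20 transgenic libraries, Tmem181b-ps and Dynlt1b, side by side on the chromosome, had r = -0.14 (permutation p = 0.57, adjusted p = 0.64) and rho = -0.08 (permutation p = 0.75, adjusted p = 0.75). Over the 29 other libraries 0 of 15 pairs passed, and this pair had r = 0.46 (permutation p = 0.024, adjusted p = 0.37) and rho = 0.36 (permutation p = 0.079, adjusted p = 0.66).

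Dynlt1b, Tmem40 and Cd59a followed marker lists of cell types or tissue, as Atp10b did. Deviations of Cd59a over the 49 libraries ran against markers of cortical excitatory neurons (r = -0.61, permutation p = 1e-05, the smallest these permutations can give, adjusted p = 0.00045; rho = -0.62, permutation p = 2e-05, adjusted p = 0.0009; r = -0.52 without the 2 farthest libraries) and with astrocyte markers (r = 0.57, permutation p = 7e-05, adjusted p = 0.0016; rho = 0.52, permutation p = 0.00037, adjusted p = 0.0073; r = 0.51 without the 2 farthest). Tmem40 ran with olfactory bulb markers (r = 0.58, permutation p = 0.00011, adjusted p = 0.0016; rho = 0.52, permutation p = 0.00049, adjusted p = 0.0073; r = 0.49 without the 2 farthest). Dynlt1b ran against the excitatory list (r = -0.48, permutation p = 0.00053, adjusted p = 0.006; rho = -0.37, permutation p = 0.0062, adjusted p = 0.038; r = -0.36 without the 2 farthest). Dynlt1b ran with astrocyte markers as well (r = 0.43, permutation p = 0.0015, adjusted p = 0.011; rho = 0.38, permutation p = 0.0061, adjusted p = 0.038; r = 0.37 without the 2 farthest). Both Dynlt1b and Cd59a also ran with the bulb list (r = 0.45, permutation p = 0.0021, adjusted p = 0.013, and r = 0.43, permutation p = 0.0025, adjusted p = 0.014; rho = 0.40, permutation p = 0.0067, adjusted p = 0.038, and rho = 0.41, permutation p = 0.0043, adjusted p = 0.038; r = 0.38 and 0.36 without the 2 farthest). The libraries lowest in excitatory markers, tamoxifen 9, vehicle 3 and vehicle 1, were also bulb-rich. The 2 farthest libraries were picked by the gene's own deviation, so no relation was computed without that set. Whether the excitatory, astrocyte and bulb relations rest on the same libraries was not tested. No marker list passed for Tmem181b-ps. Of the 5 olfactory bulb markers none passed the test between transgenic and WT libraries at 4 months, against 13.1% of all genes with tamoxifen and 6.17% with vehicle. Their summed level was 446 to 19449 normalised reads in the tamoxifen group, 467 to 53487 in the vehicle group and 810 to 16503 in WT at 4 months. The highest levels lay in single libraries, on which a test of group means cannot decide.

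The genes whose levels were most like each of the 6 over the 49 libraries, by Pearson r among 15846 genes, are given as a description. Here r mixes the step between groups with the spread within them. For Tmem181b-ps they were Tbcd (0.86), Arl8a (0.81) and Tsr2 (0.80), and for Dynlt1b Tsr2 (0.80), Mcm6 (0.78) and Brd2 (0.76). Wdfy1 was most like Tbcd, Tsr2 and Brd2 (0.84 each), and Cd59a most like Tsr2 (0.85), Dhdh (0.78) and Cnbd2 (0.76). Tbcd averaged 10.98 in the tamoxifen group and 10.96 in the vehicle group, against 10.71 in WT at 4 months, and Cnbd2 averaged 8.02 and 7.92, against 7.34 (log2). Tmem40 had other companions, Tubb2a (0.73), 6430548M08Rik (0.70) and Fam163b (0.69). For Atp10b they were Serpinb1a (0.75), Pls1 (0.74) and Aspa (0.73), the last an oligodendrocyte enzyme that breaks down N-acetylaspartate. Among the 6 themselves, r with Tmem181b-ps was 0.86 for Dynlt1b, 0.85 for Wdfy1, 0.75 for Cd59a, 0.56 for Tmem40 and -0.35 for Atp10b. With group means subtracted these lay between -0.20 and 0.26. The most like genes were then Meg3, Sugp2 and Trank1 for Tmem181b-ps (0.68 to 0.70) and Gnai3, Fam126a and Epha5 for Dynlt1b (0.67 to 0.69). They were Plce1, Sepp1 and Ret for Cd59a (0.69 to 0.71) and Fam76b, Zkscan2 and Brd8 for Wdfy1 (0.70 to 0.72). Fam163b stayed among those of Tmem40, beside Ly6g6e and Smarcd1 (0.70 each). Serpinb1a stayed the gene most like Atp10b, with Padi2 and Slc12a2 next (0.66 to 0.68).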

How the data were processed

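The authors deposited a single table of log2 values for 24495 genes in 50 value columns. Of these columns, 1 has no sample in the labels and is not analysed here. Per the labels' protocols, frontal cortex RNA was sequenced from Illumina TruSeq Stranded mRNA libraries. No source used here gives the aligner, counter, build or normalization. After 2 was raised to each deposited value and 1 subtracted, values up to 200 reads fell within 0.1 of a whole number of reads for 99.92% to 100.00% of genes per library, so the deposited log2 value is log2(reads divided by a size factor, plus 1). The 7 genes without whole reads were left out, and 27 symbols turned into dates were restored from gene IDs. Depth was 29.2 M to 75.6 M reads per library.

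limma 3.58.1 (R 4.3.3), using its trend and robust options, was fitted on the deposited values to the groups compared, over all genes with the equivalent of 10 reads at the median depth in at least the smaller group's number of libraries and 15 in total, with two-sided Benjamini-Hochberg adjustment at 0.05. It was tested on simulated data. The counts were recovered from log2 values, so limma-voom on them served as an alternative, beside other scaling, pseudocount, filters, models and left-out libraries. Correlations used deviations from group means and 100000 permutations within groups. Positions and transcripts are GENCODE M21 (GRCm38), and neighbours within 1 Mb follow RefSeq starts (24368 of 24488 gene IDs matched). The 6 genes, the lists and the tests were chosen with earlier results of these data known. Named genes are the 6, their paralogs, up to 3 genes past the threshold per list, locus and comparison, and the 3 most alike.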

Additional observations from a re-analysis of the deposited data

Results flagged for a closer look

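In 7 of 30 combinations of gene and group, the highest or lowest library stood apart from the rest of its group by more than Dixon's 95% critical value, a criterion that chance alone meets in about 1 of 20 groups. Wdfy1 was flagged in both transgenic groups: tamoxifen 21 stood at 9.33, with the next library at 10.74, and vehicle 16 at 9.26, with the next at 10.69 (log2). Both levels lie inside the range of the WT groups.

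For Atp10b, tamoxifen 21 was also low, at 3.64 with the next library at 4.84, library 8 of those labelled AKO was low at 4.47 with the next at 5.75, and WT 13 at 4 months was high at 6.81 with the next at 6.08. Tmem181b-ps was low in library 19 of those labelled AKO, at 10.78 with the next at 11.19. Cd59a was low in WT 11 at 4 months, at 7.03 with the next at 7.67.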

How the results depend on the processing

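The differences of the 6 genes between transgenic libraries and WT at 4 months, a fall for Atp10b, kept their direction under every alternative run. Such values chose the genes, so this is a description and not a test. The number of the 6 called in libraries labelled AKO against WT at 2 months was 1, and 0 in limma-voom, in 1 model of 49 libraries and without the bulb-rich libraries (an alternative chosen after seeing the data), where Cd59a was at 0.27, 0.34 and 0.30; leaving out single libraries gave 0 to 1. For WT at 4 against 2 months it was 1, and 2 in the 49-library model, where Tmem181b-ps passed (-0.43); leaving out single libraries gave 1 to 2. Of all genes, vehicle against WT at 4 months called 939, and 162 or 396 with only WT titled 11 to 15 or 21 to 25; tamoxifen called 1996, and 675 or 1242. Without the bulb-rich libraries, calls were 2748 for vehicle and 3175 for tamoxifen against WT at 4 months, 593 for vehicle against WT at 2 months (274 with them; 814 in the 49-library model), and 2623 and 3019 for vehicle and tamoxifen against libraries labelled AKO (1010 and 1485 with them). Neighbours called were 4 for vehicle, and 0, 2 and 16 with WT titled 11 to 15, with WT titled 21 to 25 and without the bulb-rich libraries; for tamoxifen they were 7, and 2 and 13 with WT titled 11 to 15 and without the bulb-rich libraries. Relatives called were 5 for vehicle, and 3, 0, 2 and 9 with at least 50 normalised reads on average, WT titled 11 to 15, WT titled 21 to 25 and without the bulb-rich libraries; for tamoxifen they were 7, and 2 and 11 with WT titled 11 to 15 and without the bulb-rich libraries. The WT subsets hold fewer samples; the cause of the other shifts was not tested. In the vehicle group alone, 1 of 10 gene pairs passed (Dynlt1b and Cd59a).

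Title numbers shared by libraries labelled AKO and WT at 4 months (12 to 15 and 21) did not pair them (r of deviations -0.283 to 0.126). A replicate block on these numbers gave 12 calls over all genes against 13 in the same 10 libraries without the block and 120 in all, and 0 of the 6 genes in each. Small differences changed sign in this comparison: with the block, and equally in these 10 libraries without it, Wdfy1 was at -0.067, Cd59a at -0.056 and Atp10b at 0.028. With only WT titled 11 to 15, Tmem181b-ps was at -0.00035, Dynlt1b at -0.18 and Wdfy1 at -0.023. All genes called were 50 in the 49-library model, 206 without the bulb-rich library and 62 (without library 8 of those labelled AKO) to 206 (without library 15) with single libraries left out. For WT at 4 against 2 months, calls over all genes were 1324, 848 in the 49-library model, 36 with only WT titled 21 to 25, where Dynlt1b was at -0.18, and 769 (without WT 12 at 4 months) to 2847 (without WT 37 at 2 months) with single libraries left out; for libraries labelled AKO against WT at 2 months these were 1844 (without WT 32) to 4208 (without WT 37). The difference of effects was -0.014 for Dynlt1b in limma-voom, and tamoxifen against vehicle was 0.0025 for Tmem181b-ps without the bulb-rich libraries.

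With single libraries left out, signs changed where differences were near 0. For tamoxifen against vehicle, Tmem181b-ps ran from -0.068 to 0.017, Wdfy1 from -0.12 to 0.24 and Cd59a from -0.15 to 0.021. For libraries labelled AKO against WT at 4 months, Cd59a ran from -0.0048 to 0.14 and Atp10b from -0.16 to 0.051, and for WT at 4 against 2 months Dynlt1b ran from -0.004 to 0.18. For tamoxifen against WT at 2 months, Tmem40 ran from -0.016 to 0.18 and Atp10b from -0.016 to 0.48. Comparisons of transgenic libraries with the other groups were given as differences of means when a library was left out, with no new fit. Low reads per library limit Atp10b (5 to 143), Tmem181c-ps (5 to 66), Cd59b (7 to 73) and Dynlt1f (0 to 22), and gene copy number was not tested.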

Other observations

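By normalised reads, genes lower in every transgenic library than in every other numbered 2 of 15852 (0.0126%), Ndufaf1 and Gm15446, both named after their values were seen. Ndufaf1, an assembly factor of mitochondrial complex I, was at 9.78 ± 0.12 in the tamoxifen group and 9.82 ± 0.05 in the vehicle group, against 10.06 ± 0.08 in WT at 4 months (log2, SD, n = 10 each). Gm15446 had at most 4 reads in 17 of the 20 transgenic libraries, against 115 to 315 reads in each of the other 29 libraries. The 3 transgenic libraries with more were tamoxifen 27 (149 reads), tamoxifen 21 (82 reads) and vehicle 16 (76 reads). By normalised reads the transgenic libraries reached 106 and the others began at 126. Tamoxifen 21 and vehicle 16 are also the 2 transgenic libraries in which Wdfy1 stood at the level of the other groups, and tamoxifen 27 lay in the middle band of Wdfy1.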
